A study of Mus musculus with 11 samples.

Results

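Fibroblast-like nuclei were picked out of single-nucleus RNA sequencing of mouse cortex. A nucleus was counted as fibroblast-like when it carried at least 1 UMI (unique molecular identifier, 1 counted transcript) of at least 3 of 7 rule genes, Ranbp3l, Bnc2, Eya2, Lama1, Slc6a13, Aox3 and Prdm6, and at most 1 UMI of the excitatory-neuron gene Slc17a7. The deposit held 114118 barcodes, and 112539 of them passed limits of 300 to 8000 genes and of 5% for the mitochondrial share of UMIs. Among these, 1010 nuclei met the rule, or 0.898%, and they held 4115972 UMIs. The rule genes are measured values, so their levels in these nuclei describe the choice and are not results.

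The study asked how NF-κB signalling in microglia acts in a mouse model of tau pathology. The 11 libraries were cortex of 11 mice, 1 library per mouse, all given tamoxifen. The labels give each mouse as female, whereas the study's methods give males for RNA sequencing, so the sex is uncertain. Mice of 4 genotypes were compared. The Ikbkb+/+ group without the tau transgene (NTG) had 4 mice, and the Ikbkb+/+;P301S+ group (P301S), which carries human tau with the P301S mutation, had 3. The Ikbkb-/-;P301S+ group had 2 mice with Cx3cr1-CreERT2 and a floxed Ikbkb gene, which encodes the kinase IKKβ. The IkbkbCA;P301S+ group had 2 mice with Cx3cr1-CreERT2 and an inducible, constitutively active IKKβ. The mice came from a floxed line and an active-IKKβ line. Both lines were present among NTG mice (2 and 2) and P301S mice (2 and 1), whereas the knockout mice were all of the floxed line and the active-IKKβ mice all of the other. Cre and the loss of 1 Cx3cr1 copy were present in the knockout and active-IKKβ mice alone, so Cre and the Ikbkb change cannot be told apart. Ages ran from 9.8 to 10.85 months in NTG, 9.15 to 10.75 in P301S, 8.39 to 9.15 in the knockout and 9.8 to 10.85 in the active-IKKβ mice. Cx3cr1-driven Cre acts in microglia and related macrophages, not by design in fibroblasts. Ikbkb was read in the fibroblast-like nuclei of every mouse, at 42.6 to 89.97 UPM (UMIs scaled to a total of 1e+06 for the nuclei named). In nuclei with microglial markers it stood at 94.2 to 122 UPM in the 7 Ikbkb+/+ mice, at 91.7 and 108 in the knockout mice and at 135 and 125 in the active-IKKβ mice. These 3′ counts need not show a deletion within the gene.

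Fibroblasts of the brain sit in the meninges, the layered sheets that wrap the cortex, and along larger vessels that enter it. They lay down collagens and laminins, make retinoic acid and bone morphogenetic proteins, and move organic ions and amino acids between blood, cerebrospinal fluid and brain. The arachnoid layer holds a sheet of cells joined by tight junctions that forms part of the barrier between blood and cerebrospinal fluid. The labels name cortex and do not say how much of the meninges stayed on the tissue.

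The 25 leading genes, picked by their ratio over other nuclei as given further on, include the AP-2 family member Tfap2b, the forkhead genes Foxd1 and Foxc1, the T-box genes Tbx18 and Tbx15 and the zinc finger gene Zic4. The RefSeq promoters of the 25 were read for short motifs of these families, and for the E-box, on both strands, over the 250 bases before each start (GRCm38.p6). Promoters were found for 20 of 25 leading genes, 21 promoters in all. The AP-2 letters GCCNNNGGC were found in 5 of the 21 (23.8%), those of Aldh1a2, Anpep, Slc13a4, Foxc1 and Slc13a3, and in 13.7% of all 32851 promoters. Here 3 of them are shown, for a retinoic acid synthase, a forkhead factor and an anion carrier, with the AP-2 letters in capitals. The windows lie at chr9:71215550-71215638 (plus strand), chr13:31806470-31806558 (plus strand) and chr6:35308127-35308211 (minus strand).
Aldh1a2: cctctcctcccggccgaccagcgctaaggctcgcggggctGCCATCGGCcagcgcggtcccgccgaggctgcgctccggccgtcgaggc
Foxc1: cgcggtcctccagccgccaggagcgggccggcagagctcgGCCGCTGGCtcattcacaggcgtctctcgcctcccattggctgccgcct
Slc13a4: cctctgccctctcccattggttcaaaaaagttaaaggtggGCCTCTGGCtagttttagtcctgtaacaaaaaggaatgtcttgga
The E-box CACGTG was found in 2 promoters, those of Slc13a3 and Bmp4 (9.52%, against 6.02% of all promoters). The forkhead letters TGTTTAC (3.17% of all promoters), the T-box letters AGGTGTGA (1.12%) and the ZIC letters CCTGCTGTG (0.691%) were in none of the 21, which says only that these letters are not in these windows. The motifs searched do not overlap each other in their letters, and a match is a string of letters, not a measured binding site.

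Before the results, 2 libraries stood apart. NTG replicate 4 gave 40 fibroblast-like nuclei with 158539 UMIs and active-IKKβ replicate 1 gave 29 with 140725, whereas the other 9 mice gave 60 to 138 nuclei, up to 554617 UMIs. Across the series, libraries held 7500 to 12315 barcodes and 72007219 to 93205362 UMIs. Of the barcode sequences, 1599 occurred in more than 1 library, 22 of them belonging to a fibroblast-like nucleus, and none was shared by 2 fibroblast-like nuclei. The median depth was 3339 UMIs in fibroblast-like nuclei and 7104 in all other kept nuclei, 4535 in the astrocyte gate, 2219 in the mural gate and 2391 in the endothelial gate, each gate built in the same manner from 7 markers of its own. Shares of nuclei with a UMI were not matched for depth.

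The label was checked against markers that the rule did not use, as a description without a test. At least 3 of 10 other fibroblast markers were detected in 328 of the 1010 nuclei (32.5%), in 0.0484% of all other nuclei, 0.154% of mural, 0.388% of endothelial and 0.0710% of astrocyte nuclei. Dcn, a small matrix proteoglycan, had 129 UPM against 1.65 in all other nuclei. Col3a1, a fibrillar collagen, had 52.7 against 0.173, and Col1a1 had 42.8 against 0.726. Pdgfra, the receptor found on fibroblasts and oligodendrocyte precursors, had 132 UPM against 12.4. Other members of the list were thin: Lum, a further matrix proteoglycan, had 47 UMIs over all mice and the growth factor Igf2 had 5.

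Some defining markers of neighbouring cell types were low and others were not. The pericyte channel subunit Abcc9 had 3.401 UPM in fibroblast-like nuclei and 912 in the mural gate, and Kcnj8 had 2 UMIs. The endothelial junction gene Cldn5 had 2.19 UPM against 554 in the endothelial gate, and the astrocytic water channel Aqp4 had 8.99 against 181 in the astrocyte gate. The border macrophage genes Cd163, Pf4 and Ms4a7 and the epithelial keratins Krt8 and Krt18 were at 0 UMIs. On the mural and endothelial lists, 2 of 7 genes each were seen in at least 10% of fibroblast-like nuclei. The transporting ATPase Atp13a5 had 135 UPM (3929 in the mural gate) and Vtn, which encodes vitronectin, had 76.5 (946). Flt1, a VEGF receptor, had 124 UPM (4050 in the endothelial gate) and the efflux pump Abcb1a had 136 (954). Genes of the astrocyte list were not all low either, among them the glutamate transporter Slc1a3 with 1132 UPM (2306 in the astrocyte gate) and the connexins Gjb6 with 176 (116) and Gja1 with 115 (215). A list of 12 neuronal transcripts, which in droplets also come from free RNA, made up 2.13% of the UMIs of fibroblast-like nuclei (1.495% to 2.92% by mouse) and 5.62% of those of all other nuclei.

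The rule has a sharp edge. Of the 1010 nuclei, 347 carried exactly 3 rule genes, 294 carried 4, 273 carried 5, 91 carried 6 and 5 carried all 7. Nuclei just inside, with 3 rule genes, had a median of 3428 UMIs, and 24.8% of them had at least 3 of the other fibroblast markers. Just outside, 317 nuclei carried 2 rule genes, with a median of 7155 UMIs. Of these, 24 (7.57%) had 3 other fibroblast markers and 45 (14.2%) had 3 astrocyte markers. A further 43 nuclei had enough rule genes but more than 1 Slc17a7 UMI. No doublet caller was used. Among the 1010, 150 also met the astrocyte gate, 40 the oligodendrocyte gate, 38 that of oligodendrocyte precursors, 22 the inhibitory neuron gate, 5 that of microglia, 4 the endothelial and 3 the mural gate, and 758 remained when every nucleus with 3 markers of another class was left out.

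The 25 leading genes were those with the highest ratio of fibroblast-like over all other nuclei, rule genes aside, among genes seen in at least 20% of the nuclei. Since they were picked by this ratio, it is given without a test. In each of the 25, the level in every one of the 11 mice lay above the level in other nuclei of any mouse. That follows largely from the choice, and how many other genes separate so was not counted. Solute carriers were among them. Slc22a6, an organic anion transporter, had 127 UPM against 0.101 elsewhere, and ran from 63.1 UPM in NTG replicate 4 over a median of 119 to 201 in active-IKKβ replicate 2. Slc47a1, which exports organic cations, had 360 UPM against 0.496, from 150 to 833 by mouse. Its ratio of 724 over other nuclei was 159 with at least 4 rule genes, that of the anion exchanger Slc26a7 went from 209 to 41.7, and that of Tbx15 from 133 to 70.8. Slc6a20a, a proline transporter, had 1154 UPM against 3.55, but the mural gate held 848 UPM of it as well. Slc22a8, another organic anion transporter, likewise had 207 UPM here, 176 in the mural gate and 219 in the endothelial gate. Slc13a4, a sulfate carrier, had 267 UPM against 1.28.

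Aldh1a2, at chromosome 9, 71215789 to 71296243 (GRCm38), makes retinoic acid. Its level was 229 UPM against 0.234 in all other nuclei, lowest in NTG replicate 4 (101 UPM) and highest in knockout replicate 2 (314 UPM), and 41.0% of the nuclei carried it, against 0.114% in the astrocyte gate. Transcription factors were also among the 25. Foxd1 had 176 UPM against 0.303, Tbx18 had 236 against 0.501, Tfap2b had 68.8 against 0.1502, and Foxc1, at chromosome 13, 31806633 to 31812476, had 81.6 against 0.509. Some were also read in vessel nuclei. The mural gate held Tbx15 at 169 UPM (436 here), Zic4 at 139 (262 here), Tbx18 at 106 and Foxd1 at 48.6. Foxc1 stood at 54.4 UPM in the endothelial gate. Cdh5, the cadherin of endothelial junctions, was a leading gene too, with 80.2 UPM here and 177 in the endothelial gate. Cped1 was the most widespread leading gene, in 97.4% of the nuclei at 1953 UPM, against 537 UPM in the mural gate.

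**Figure D1:**
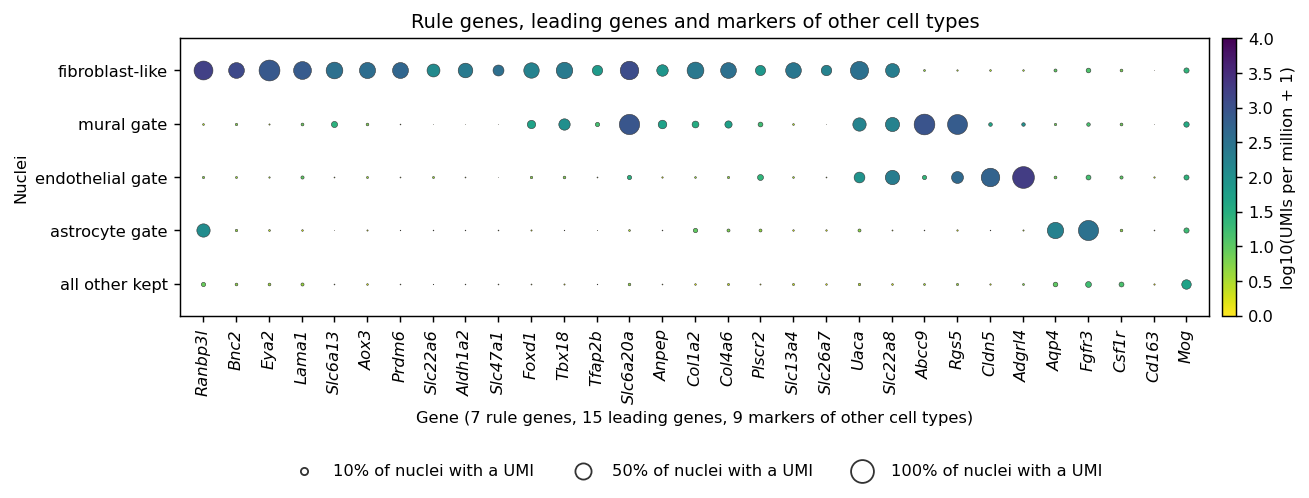
Dot plot of the 7 rule genes, 15 leading genes and 9 markers of other cell types (columns) in fibroblast-like nuclei, the mural, endothelial and astrocyte gates and all other kept nuclei (rows). Dot size is the percentage of nuclei with at least 1 UMI and colour the level as log10(UPM + 1). The first row, fibroblast-like nuclei, is filled for rule and leading genes and nearly empty for Abcc9 (3.401 UPM), Cldn5 (2.19) and Aqp4 (8.99). Slc6a20a is also filled in the mural gate (848 UPM).

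Gene lists gave the wider make-up as shares of UMIs. Fibrillar matrix genes took 0.168% of the UMIs of fibroblast-like nuclei and 0.0152% of those of other nuclei. Basement membrane genes took 0.348% against 0.0428%. Here Col4a6 (346 UPM against 1.36) and Lama2 (843 UPM, with 1076 in the mural gate) contributed, and the rule gene Lama1 is itself on that list. Col4a5 and Col4a6 are collagen IV chains encoded head to head on the X chromosome, at 141475385 to 141689234 on the plus strand and 141165403 to 141474076 on the minus strand. Genes of the solute transport list took 0.962% against 0.110%, with the cystine exchanger Slc7a11 at 2079 UPM (355 in the astrocyte gate). The rule genes Slc6a13 and Aox3 are on that list, so part of its share follows from the choice of nuclei. Aox3 encodes an aldehyde oxidase and not a carrier.

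Growth factors took 0.429% of the UMIs against 0.0301% elsewhere. Bmp6, a bone morphogenetic protein, had 1317 UPM against 13.2, and Ptgds, the prostaglandin D synthase, had 1164 against 18.0. Retinoid genes took 0.113% against 0.0365%. Among receptors, that of leptin, Lepr, had 211 UPM against 5.51. Il34, a ligand of the microglial receptor Csf1r, had 315 UPM against 26.2, but the mural gate had 536. The NF-κB and inflammation list took 0.111% of UMIs against 0.0520% elsewhere. Only 6 of its 34 genes were higher here than in the mural, endothelial and astrocyte gates alike, and 8 had under 3 UMIs. Csf1, a growth factor of macrophages, had 186 UMIs (45.2 UPM against 10.7), the alarmin Il33 had 122 (29.6 against 28.1) and the complement gene C4b had 96 (23.3 against 8.28). Ccl2 had 1 UMI, and the chemokine Ccl11, like Cxcl1, Cxcl10, Il6 and Lcn2, was at 0 of 4115972 UMIs.

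The nuclei fell into 2 main kinds along a pair of gene sets chosen after their values were seen. The Slc47a1 set (Slc47a1, Adamtsl3, Slc26a7, Rspo3 and Col25a1) led in 281 nuclei and the Slc6a20a set (Slc7a11, Slc6a20a, Slc13a3, Col4a5 and Ror2) in 724, and 5 were tied. Few were mixed, since 248 of the 281 nuclei (88.3%) and 618 of the 724 (85.4%) had no UMI at all of the opposite set. The rule genes, which chose the nuclei and so bear on which kinds could enter, are given as a description. Bnc2, a zinc finger gene, had 3434 UPM in Slc47a1-set nuclei and 362 in the others, and Prdm6 had 797 and 364. Lama1, a basement membrane laminin, had 6.29 and 1072 UPM, Ranbp3l had 148 and 2368, and the taurine and GABA carrier Slc6a13 had 1 UMI in all Slc47a1-set nuclei and 506 UPM in the others. Eya2, a transcriptional coactivator, had 1428 and 509 UPM and was seen in 98.9% and 77.6% of the nuclei. The median nucleus carried 3 rule genes in the Slc47a1 kind and 5 in the other.

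Within these kinds, 2 further pairs of gene sets, again chosen after seeing values, gave 4 groups named by a leading gene. The Cemip group had 540 nuclei (53.5%), the Smoc1 group 156 (15.4%), the Slc47a1 group 239 (23.7%) and the Dpp4 group 40 (3.96%), and 35 (3.47%) were not placed. Median depths were 2986, 3679, 3922 and 3647 UMIs. The check on other fibroblast markers differed by group, with at least 3 of the 10 in 43.0%, 26.9%, 17.6% and 12.5% of the nuclei. Pdgfra, which served to split the nuclei, had 185 UPM in the Slc6a20a kind and 17.3 in the Slc47a1 kind, and all 47 UMIs of Lum lay in the former. In the Slc47a1 group, 210 of 239 nuclei carried exactly 3 rule genes. The share of nuclei with 3 markers of another class was 27.4% in the Cemip group, 30.8% in the Smoc1 group, 15.5% in the Slc47a1 group and 15% in the Dpp4 group. For the Cemip group these were mostly astrocyte markers (109 nuclei), a list whose Slc1a3 stood at 1649 UPM in that group and 48.1 in the Slc47a1 group. Gjb6 had 217 and 118 UPM and Gja1 141 and 88.9, while Aqp4 had 6.44 and 17.2 and Fgfr3 13.9 and 17.2. The part of mixed droplets in these levels was not tested.

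**Figure D2:**
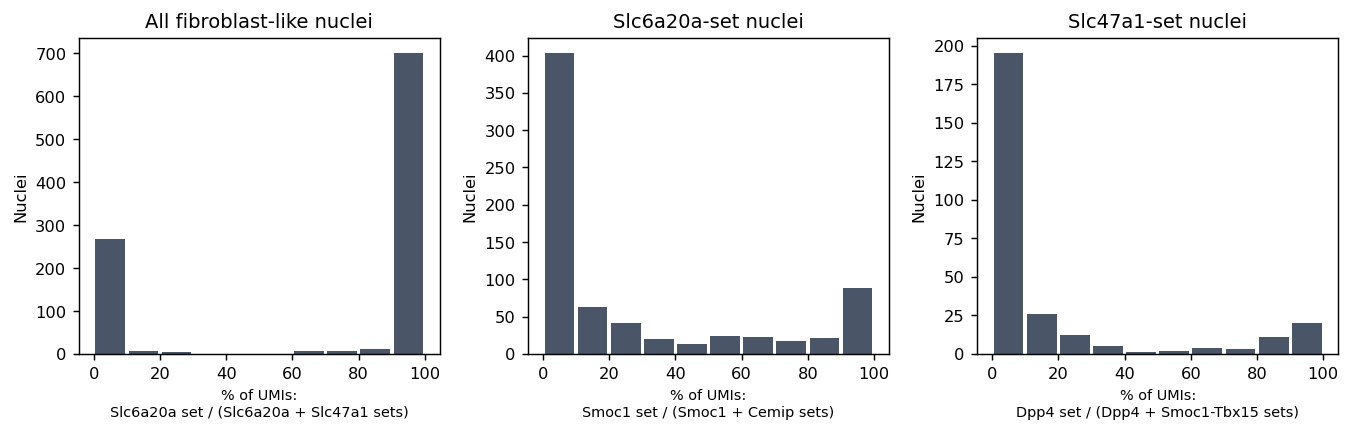
Histograms of the fraction of set UMIs that belong to one of 2 gene sets (x axis) against the number of nuclei (y axis), for the first split over all fibroblast-like nuclei and for the 2 further splits within each kind. In the first split 268 nuclei sit in the lowest of 10 bins and 700 in the highest, with few between, while in the split within Slc6a20a-set nuclei 139 lie between 20% and 80%.

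Matrix genes were spread over the groups. Of 22 basement membrane genes, 15 were highest in the Cemip group, 4 in the Dpp4 group and 3 in the Slc47a1 group. Among the 22, 2 had served to split the nuclei and 1 to choose them. How many of all genes were highest in each group was not counted. Of 24 fibrillar matrix genes, 10 were highest in the Cemip group, 7 in the Slc47a1 group, 4 in the Smoc1 group and 3 in the Dpp4 group. Col4a6 had 655 UPM in the Cemip group, against 80.9 in the Smoc1 group, 1.81 in the Slc47a1 group and 0 in the Dpp4 group. Dcn had 230, 47.1, 10.9 and 48.1 UPM in the same order, and Eln, which encodes elastin, had 131 in the Cemip group and 20.6 or less elsewhere. Col12a1 went the other way, with 339 UPM in the Slc47a1 group and 101 in the Cemip group, as did the collagen VI chain Col6a1, with 141 and 41.1. Ndnf, a secreted neurotrophic protein, had 229 UPM in the group where it was highest and 23.5 or less elsewhere. Il34 had 562 UPM in the Cemip group, 153 in the Smoc1 group and 36.0 or less in the other 2. The interleukin 1 receptor Il1r1 had 86.7 UPM in the Cemip group, 10.3 in the Smoc1 group, 22.7 in the Slc47a1 group and 0 in the Dpp4 group.

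The Smoc1 group had levels near those of the Cemip group for some genes, with Aldh1a2 at 356 UPM against 323 and Slc22a6 at 172 against 192, where the Slc47a1 group had 4.54 and 0. It differed in others. Aldh1a1, another retinaldehyde dehydrogenase, which served to split the nuclei, had 39.7 UPM against 543. Rspo2, an activator of Wnt signalling, had 737 UPM and 30.0 or less in the other groups. Nnat, an imprinted gene, had 1049 against 96.1 in the Cemip group, and Ptgds had 4235 against 674. Cftr, the chloride channel, had 204 UPM, with 3 UMIs or fewer in each other group. Slc22a8 had 604 UPM here and 184 in the Cemip group, and Slc13a4 had 600.0 and 294.

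The Slc47a1 group held another set of carriers. Slc4a10, a sodium bicarbonate transporter, had 5396 UPM against 161 in the Cemip group and 385 in the Dpp4 group. Slc38a2, a neutral amino acid transporter, had 2253 against 189, and Slc23a2, a vitamin C transporter, had 1481 against 152. Slc47a2, a close relative of Slc47a1, had 172 UPM, with 3 UMIs or fewer in each other group. The mechanically gated channel Piezo2 had 643 UPM, and Bche, which encodes butyrylcholinesterase, had 352 and 30.0 or less elsewhere. The forkhead genes Foxp1 and Foxp2 had 2609 and 2608 UPM, against 814 and 404 in the Cemip group.

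The Dpp4 group is small, 40 nuclei with none from active-IKKβ replicate 1, and it carried some genes of cell junctions. Cldn11, a tight junction claudin that oligodendrocytes also use, had 595 UPM against 70.8 in the Slc47a1 group and 32.4 or less elsewhere. Cdh1, the epithelial cadherin, had 535 against 183 in the Slc47a1 group and 0 in the Cemip group. Tjp1, a scaffold of tight junctions, had 2349 UPM against 410.0 to 854.7. Fn1, which encodes fibronectin, had 1983 UPM against 426 in the Slc47a1 group and 6.44 in the Cemip group, and the efflux pump Abcb1a had 571 against 404 and 2.97. Dpp4, Cldn11, Cdh1 and Tjp1 are on the list of arachnoid barrier genes. Dpp4 names this group, and the sets that drew it were chosen after values were seen. High levels of such genes here thus follow in part from the choice. Krt8 and Krt18 of the same barrier list had no UMI in any fibroblast-like nucleus. Its last member, the tight junction claudin Cldn1, had 5 UMIs in all, none of them in the Dpp4 group.

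**Figure D3:**
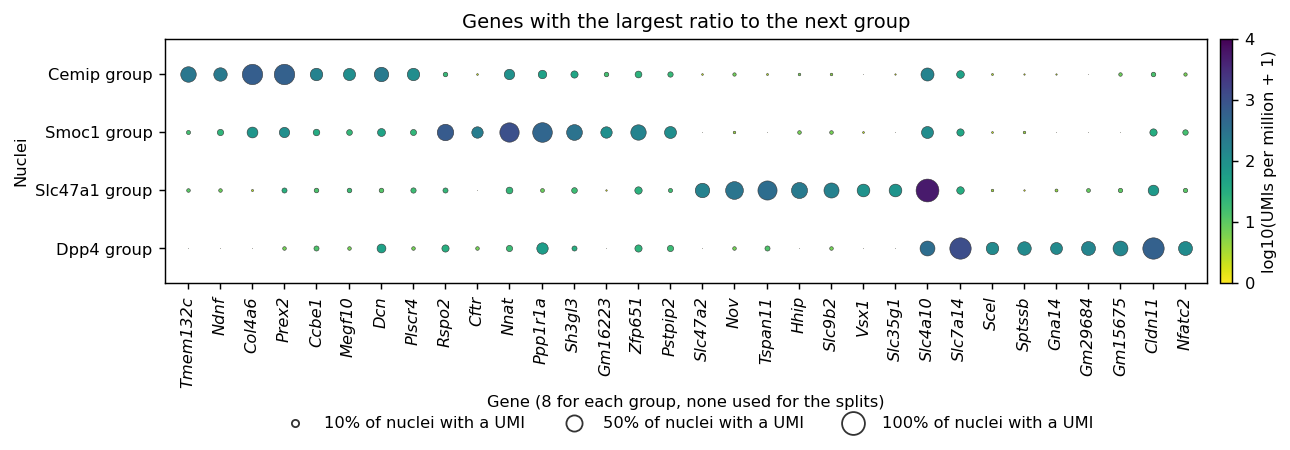
Dot plot of 8 leading genes for each of the 4 groups (columns) in the Cemip, Smoc1, Slc47a1 and Dpp4 groups (rows). Dot size is the percentage of nuclei with at least 1 UMI and colour the level as log10(UPM + 1). Slc4a10 is strong in the Slc47a1 group (5396 UPM) and weak in the other 3 (118 to 385), and the genes were chosen for such patterns.

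The make-up by group differed between mice of the same genotype, and no test was run on it. The Cemip group made up 42.3%, 64.5%, 43.0% and 42.5% of the fibroblast-like nuclei in the 4 NTG mice, 60.9%, 56.7% and 57.3% in the P301S mice, 38.6% and 56.7% in the knockout mice, and 58.6% and 62.0% in the active-IKKβ mice. The Slc47a1 group ran from 10.7% to 45.0% within NTG alone. The Dpp4 group made up 10.8% and 6.67% in the knockout mice, 1.61% to 4.81% in P301S, 1.03% to 6.61% in NTG and 0% and 1.27% in the active-IKKβ mice, from at most 9 nuclei per mouse.

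The next question was whether the share of fibroblast-like nuclei differed between genotypes. They made up 1.03%, 1.196%, 1.46% and 0.415% of kept nuclei in the NTG mice, 1.24%, 0.852% and 1.14% in the P301S mice, 0.793% and 0.815% in the knockout mice, and 0.269% and 0.705% in the active-IKKβ mice. The 2 active-IKKβ mice lay below all 3 P301S mice and the 2 knockout mice did as well, while NTG and P301S overlapped. NTG replicate 4, with a Wilson 95% interval of 0.305% to 0.564%, and active-IKKβ replicate 1, with 0.187% to 0.386%, lay under all others, and these intervals cover counting error only. Mean shares were 1.02% ± 0.443 (SD, n = 4) in NTG, 1.08% ± 0.200 (n = 3) in P301S, 0.804% ± 0.0158 (n = 2) in the knockout and 0.487% ± 0.309 (n = 2) in the active-IKKβ mice.

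None of 4 differences passed an exact two-sided permutation test over mice. P301S minus NTG was 0.0516 points (exact p = 0.857, adjusted over the 4 comparisons 0.857). Without NTG replicate 4 it was -0.152 points. Knockout minus P301S was -0.272 points (exact p = 0.2, adjusted 0.4), and active IKKβ minus P301S was -0.588 points (exact p = 0.1, adjusted 0.4), and with 3 against 2 mice the smallest p this design allows is 0.1. These values were -0.120 and -0.342 points when each nucleus was thinned to 1000 UMIs, and -0.137 and -0.332 with at least 4 rule genes. Those settings left 624 and 663 fibroblast-like nuclei in place of 1010. All shares were therefore lower, and the points are not on the same scale. The mean of the 3 P301S genotypes minus NTG was -0.235 points (exact p = 0.318, adjusted 0.424). With 1 mouse left out it ran from -0.438 (without NTG replicate 4) to -0.0906 points (without NTG replicate 3). Without both NTG replicate 4 and active-IKKβ replicate 1 it was -0.366 points, and active IKKβ minus P301S was -0.370. Those 2 mice were picked for having the fewest of these nuclei, which is the outcome itself, so no p is given.

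Within the active-IKKβ line the single P301S mouse had 1.14%, above both active-IKKβ mice, and the NTG mice of that line had 1.46% and 0.415%. A share of nuclei also depends on how much of the meninges stayed on the cortex, which the labels do not give. Mural nuclei of the vessel wall made up 0.425% of kept nuclei in NTG replicate 4 and 0.306% in active-IKKβ replicate 1, against 0.380% to 0.879% in the other 9 mice. Endothelial nuclei made up 0.145% in NTG replicate 4, the lowest of the 11 mice, and 0.278% in active-IKKβ replicate 1, against 0.2445% to 0.8125% in the other 9. The part of dissection in the shares was not tested.

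**Figure D4:**
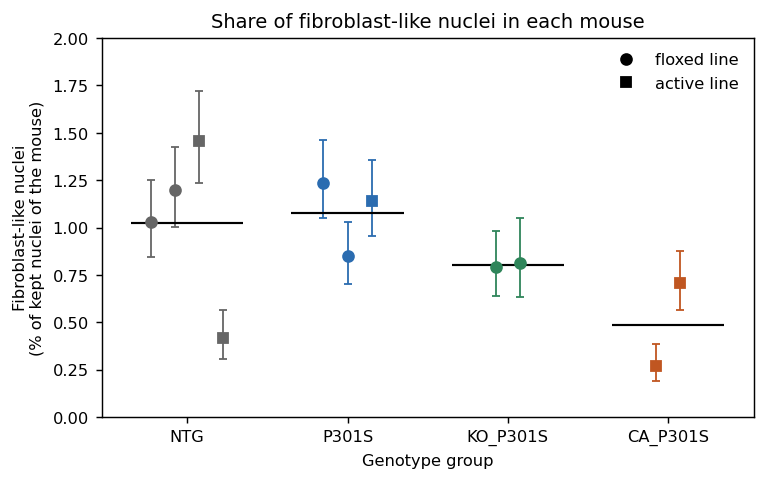
Fibroblast-like nuclei as a percentage of kept nuclei (y axis) in each of the 11 mice by genotype (x axis); bars are Wilson 95% intervals, horizontal lines group means, circles the floxed line and squares the active-IKKβ line. NTG spans 0.415% to 1.46%, which covers the values of every P301S and knockout mouse, and both active-IKKβ mice lie below the P301S mice.

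Genes were then compared between genotypes on counts summed per mouse over the fibroblast-like nuclei, with edgeR's quasi-likelihood test over 7795 genes and Benjamini-Hochberg adjustment. The groups above are pooled in these sums, so fewer nuclei of a kind and less RNA per nucleus cannot be told apart. A gene was called at an adjusted p under 0.05 and a log2 fold change over 0.1 in size. No gene was called by edgeR in any of the 4 comparisons, 0.0% of genes for P301S against NTG, 0.0% for the knockout against P301S, 0.0% for active IKKβ against P301S and 0.0% for the mean of the 3 P301S genotypes against NTG. At an unadjusted p under 0.05 there were 228 genes (2.92%), 338 (4.34%), 446 (5.72%) and 352 (4.52%), and DESeq2 also called none. These fits used a filter on low counts. Without it edgeR called 7, 12, 34 and 17 of 19428 genes, of which 5, 11, 29 and 16 had been tested with the filter too. Without the 2 mice with fewest nuclei, 0 of 8622 genes were called in each comparison by edgeR, with 261, 411, 496 and 400 genes at an unadjusted p under 0.05. The 5 genes of lowest p in each comparison are named as values that did not pass with the count filter. Since they were picked by p, a lack of overlap between mice follows largely from the choice. How many of all 7795 genes separate in this way was not counted. Levels are CPM (the same scale on TMM-scaled sums per mouse). The last 3 comparisons use the P301S mice again, and the first and last the NTG mice.

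Il1r1, the receptor of interleukin 1, at chromosome 1, 40225080 to 40317257, had the lowest p for P301S against NTG. Its level was 19.8, 29.9, 29.4 and 32.7 CPM in NTG and 65.4, 78.0 and 81.6 in P301S. It was 37.8 and 79.1 in the knockout and 82.3 and 69.1 in the active-IKKβ mice. These levels rest on 209 UMIs in all. The log2 fold change was 1.44 (SE 0.28), with an adjusted p of 0.730 by edgeR (0.0149 to 1.0 over the alternatives), and for all 3 P301S genotypes against NTG it was 1.28 (SE 0.26, adjusted p = 0.839 by edgeR). The Cemip group gave 175 of the 209 UMIs, and within Slc6a20a-set nuclei alone the P301S log2 fold change was 1.47.

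Other genes of low p for P301S were Vat1l, Meis1, Hsd17b12 and Slc6a17. Vat1l had 8.50, 10.7, 13.7 and 19.6 CPM in NTG and 50.8, 59.8 and 20.4 in P301S (log2 fold change 1.77, SE 0.50). Meis1, a homeobox gene, had 31.2, 29.9, 5.87 and 19.6 CPM in NTG and 53.3, 70.2 and 50.1 in P301S (1.43, SE 0.42), a value that was 0.68 with at least 4 rule genes. Hsd17b12, an enzyme of fatty acid elongation, was lower in each P301S mouse, with 65.1, 53.3, 74.4 and 45.8 CPM in NTG and 26.6, 36.4 and 35.2 in P301S (-0.90, SE 0.26). Slc6a17, a neuronal vesicle transporter, had 119 to 157 CPM in NTG and 63.1 to 96.8 in P301S (-0.73, SE 0.21). All 4 had an adjusted p of 0.9999 by edgeR.

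For the knockout against P301S, the lowest p was that of Cyp7b1, an oxysterol hydroxylase at chromosome 3, 18071950 to 18243338. It had 169, 185 and 247 CPM in P301S and 89.1 and 65.9 in the knockout. The log2 fold change was -1.34 (SE 0.25, adjusted p = 0.319 by edgeR). The antisense gene 5830418P13Rik had a log2 fold change of 2.68 and the same adjusted p by edgeR, from 107 UMIs in all. Without the count filter both were called by edgeR, Cyp7b1 at an adjusted p of 0.0211 (0.0211 to 0.9999 over its alternatives) and 5830418P13Rik at 0.000319 (0.000319 to 0.9999). The other 3 genes of lowest p, all protein-coding, had a higher mean level in the knockout. Tmem51 had 21.8, 31.2 and 46.4 CPM in P301S and 89.1 and 92.3 in the knockout (1.41, SE 0.34). Ahnak2 had 26.6, 44.2 and 29.7 against 113 and 70.3 (1.504, SE 0.38), and Scara3, a scavenger receptor, had 19.4, 18.2 and 33.4 against 62.1 and 61.5 (1.33, SE 0.35, and 2.82 with at least 4 rule genes).

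For active IKKβ against P301S, Mgp, the matrix Gla protein that limits calcification, at chromosome 6, 136872435 to 136875823, had 46.0, 41.6 and 29.7 CPM in P301S and 120 and 107 in the active-IKKβ mice (log2 fold change 1.52, SE 0.29, adjusted p = 0.611 by edgeR). Mylk, the myosin light chain kinase of contractile cells, had 24.2, 20.8 and 33.4 against 67.4 and 94.998 (1.66, SE 0.37). With nuclei that carried 3 markers of another class left out, these values were 0.32 for Mgp and 0.73 for Mylk, and Mylk had 0.82 with at least 4 rule genes. Without the count filter both were called by edgeR, Mgp at an adjusted p of 0.0370 and Mylk at 0.0417 (up to 0.998 over their alternatives). Smooth muscle markers were high in active-IKKβ replicate 2, where the 7-gene list took 0.0231% of UMIs against 0.000631% to 0.00829% in the other mice, and 33 of the 36 UMIs of Acta2, the smooth muscle actin, came from that mouse. In active-IKKβ replicate 1 the list took 0.00213% of UMIs. The part of smooth muscle RNA in Mgp and Mylk was not tested.

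The remaining 3 genes were lower in the active-IKKβ mice. Sybu, a neuronal transport adaptor, had 196, 146 and 154 CPM in P301S and 67.4 and 74.8 in the active-IKKβ mice (-1.19, SE 0.26), and its value was -0.61 with nuclei of 3 other-class markers left out. Beside it, 11 of 12 neuronal transcripts lay below 0 in the same comparison (median -0.47), and their part in Sybu was not tested. Fgf13 had 213, 268 and 202 against 29.9 and 112 (-1.45, SE 0.36), a value that was -0.22 within Slc6a20a-set nuclei alone and -2.94 without active-IKKβ replicate 2. Without the count filter edgeR called Fgf13 at an adjusted p of 0.00530 (up to 0.9997 over its alternatives). Dock8, with 66 UMIs in all, had 19.4, 20.8 and 16.7 CPM in P301S, from 8, 8 and 9 UMIs. It had 9.79 to 17.0 CPM in NTG, 40.5 and 30.8 in the knockout and no UMI in either active-IKKβ mouse. Mylk, Sybu, Fgf13 and Dock8 had an adjusted p of 0.861 by edgeR.

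For the 3 P301S genotypes against NTG, Nkd2, an inhibitor of Wnt signalling, had 11.3, 23.5, 19.6 and 26.2 CPM in NTG and 29.7 to 82.3 in the 7 tau mice (log2 fold change 1.43, adjusted p = 0.839 by edgeR). Cacng4, a subunit of AMPA receptors, had 5.67 to 37.2 CPM in NTG and 39.0 to 92.1 in the tau mice (1.54), and Plagl1, an imprinted zinc finger gene, had 27.7 to 91.6 in NTG and 7.49 to 53.8 in the tau mice (-1.64), both with an adjusted p of 0.981 by edgeR. Cacng4 is on the list of oligodendrocyte precursor genes, of which 4 of 4 tested lay above 0 (median 0.55, and 0.60 for P301S alone against NTG). That list took 0.0302% to 0.0789% of UMIs by mouse, and its part in Cacng4 was not tested. Mobp, a myelin gene, had 9.79 to 19.6 CPM in NTG and 16.9 to 135 in the tau mice (1.75). The oligodendrocyte list took 0.107% and 0.0764% of UMIs in the active-IKKβ mice and 0.0337% to 0.0777% in the other 9, and of its 6 tested genes 5 lay above 0 with a median log2 fold change of 1.22, beside -0.02 over all genes. The part of oligodendrocyte RNA in Mobp was not tested. Without the count filter edgeR called all 5 genes of this comparison, at adjusted p of 0.0213 for Il1r1, 0.0210 for Nkd2, 0.00243 for Mobp and 0.00215 for Plagl1 and Cacng4 (each up to 1.0 over its alternatives).

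**Figure D5:**
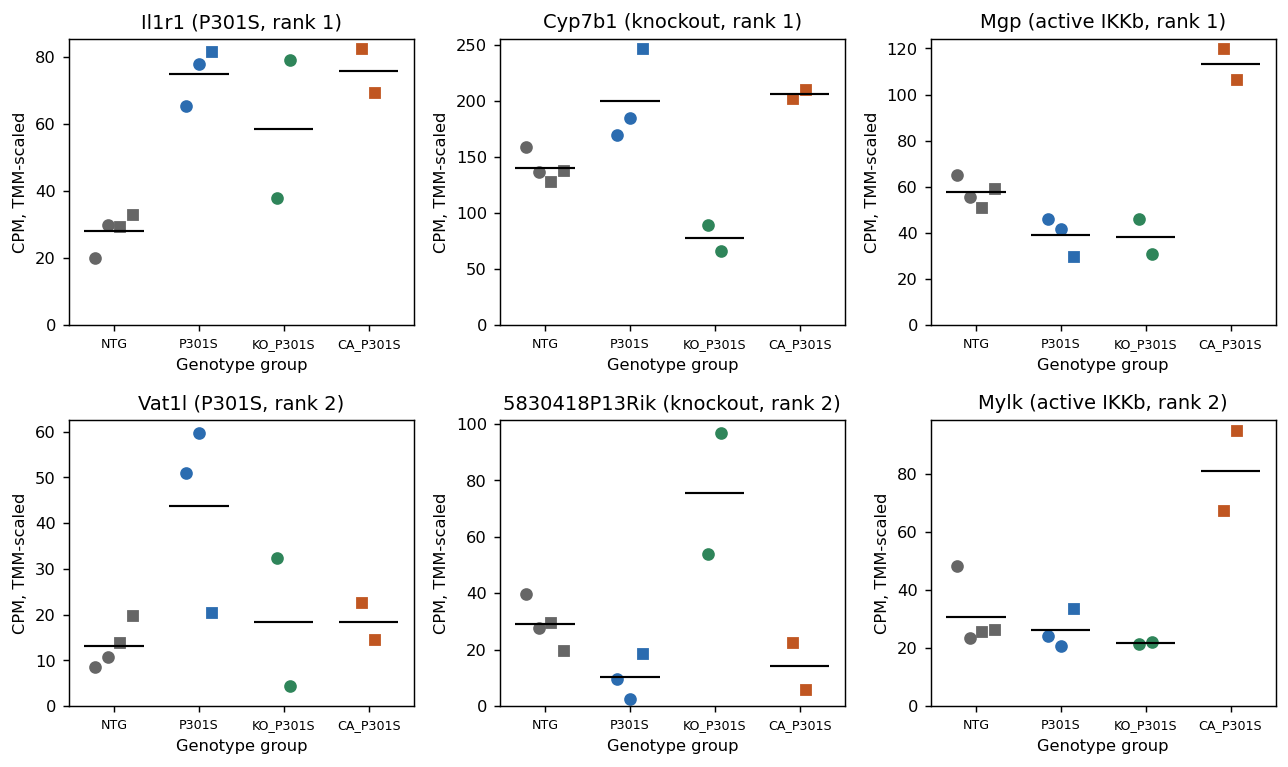
Level in CPM (y axis, from 0) per mouse for Il1r1 and Vat1l (P301S against NTG), Cyp7b1 and 5830418P13Rik (knockout against P301S) and Mgp and Mylk (active IKKβ against P301S), by genotype (x axis); points are mice and lines group means. Il1r1 lies at 19.8 to 32.7 in NTG and 37.8 to 82.3 in the tau mice. No gene shown passed the adjusted threshold with the count filter, and all but Vat1l passed it without the filter.

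Gene lists were described by counts on either side of 0 and by their median log2 fold change, without a set test. Over all 7795 genes the median was -0.0032 for P301S, -0.0019 for the knockout, 0.0054 for active IKKβ and -0.016 for the 3 genotypes together, with 3871, 3874, 3932 and 3689 genes above 0. No gene of any list was called with the count filter. Of the 25 leading genes, 7 lay above 0 for P301S (median -0.15), 13 for the knockout (0.083) and 20 for active IKKβ (0.21). Fibrillar matrix genes, 19 tested of 24, had 8 above 0 for P301S (-0.010), 12 for the knockout (0.23) and 14 for active IKKβ (0.43). Basement membrane genes, 17 of 22 and the rule gene Lama1 among them, had 11, 11 and 13 above 0 (0.090, 0.083 and 0.33). For the 3 genotypes together, 9 of 25 leading genes, 11 of 19 fibrillar matrix genes and 14 of 17 basement membrane genes lay above 0 (-0.10, 0.097 and 0.24).

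The solute transport list, which holds the rule genes Slc6a13 and Aox3, had 9, 13 and 14 of 23 above 0 (-0.13, 0.047 and 0.098). The transcription factor list, which holds the rule genes Bnc2, Eya2 and Prdm6, had 6, 7 and 15 of 21 above 0 (-0.16, -0.066 and 0.14). Retinoid genes had 7, 4 and 7 of 9 above 0 (0.18, -0.39 and 0.50). The NF-κB and inflammation list, the pathway changed in microglia here, had 15 of 34 genes tested, with 9 above 0 for P301S (0.20), 7 for the knockout (-0.048) and 7 for active IKKβ (-0.16). Its adhesion molecule Vcam1 had 99.3, 49.4 and 40.8 CPM in P301S and 10.8 and 17.6 in the knockout, a log2 fold change of -2.18 (adjusted p = 1.0 by edgeR, and 0.0212 without the count filter, where it was called). Vcam1 rests on 165 UMIs, all in Slc6a20a-set nuclei. They came from 10 of the 11 mice, and the mouse without any was in neither of these groups. Interferon genes, 16 of 30, had 11, 7 and 7 above 0 (0.30, -0.10 and -0.021).

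Receptors, 21 of 24, had 16, 6 and 14 above 0 (0.16, -0.17 and 0.11), Il1r1 among them. Genes of activated fibroblasts, 12 of 22, had 7, 6 and 7 above 0 (0.13, -0.0028 and 0.21). The 4 tested arachnoid barrier genes were all above 0 for the knockout (median 0.79), with Dpp4 at 1.02, Cldn11 at 0.84 and Cdh1 at 0.73, and 0 of 4 were above it for P301S (-0.12). Beside them stands the share of the Dpp4 group, which was 10.8% and 6.67% in the knockout mice and 1.61% to 4.81% in P301S, so a level per nucleus and the number of such nuclei cannot be told apart. Of 12 neuronal transcripts, 11 lay below 0 for active IKKβ (median -0.47), and their summed share was 1.595% and 1.58% of UMIs in those mice and 1.495% to 2.64% in P301S. For the 3 genotypes together, 11 of the 12 also lay below 0 (-0.22).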

How the data were processed

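The authors sorted DAPI-stained nuclei from frozen cortex, made 10x 3′ v3 libraries and counted UMIs, introns included, against mm10 with Cell Ranger 3.1.0, and the deposited values are raw counts per gene and barcode with no normalization. No column belonged to a sample outside the series (0). The fibroblast-like nuclei, gene lists and groups were chosen with earlier results of these data known. Groups came from GEO's labels. Raw counts were summed per mouse, since nuclei are not replicates, and tested with edgeR 4.0.16 in R 4.3.3 (filterByExpr, TMM, all 11 mice in 1 fit, 4 contrasts; biological coefficient of variation 19.7%). The tested genes held 95.0% of the summed UMIs. DESeq2 1.42.0 was an alternative. Shares were compared by exact permutation over mice (SciPy 1.17.1). The scripts were tested on simulated data. Replicates are separate mice by the labels.

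Named genes followed a rule: the 25 with the highest ratio over other nuclei, up to 10 called genes per direction, or the 5 of lowest p where fewer than 5 were called, and genes of the lists. Col4a5, Slc7a11 and other genes that define the 2 kinds and 4 groups, with the other leading genes of the groups, and Acta2, were chosen after their values were seen. No doublet caller was run, and a stricter set left out nuclei with 3 of 7 markers of another class. Alternatives changed the size factors, count filter, test, line and age terms, number of rule genes, doublets, denominator, depth (1000 UMIs per nucleus) and mice. UMI totals limit each value, since a gene at 0 in a mouse may hold up to 3 counts unseen. Gene positions are GENCODE on GRCm38 and promoters RefSeq on GRCm38.p6.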

Additional observations from a re-analysis of the deposited data

Results flagged for a closer look

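Among 50 measures looked at in the 4 NTG mice, 6 had 1 mouse far from the rest, where the gap to the nearest mouse over the whole range exceeded Dixon's 95% limit for 4 samples. Chance flags about 1 in 20 such groups. The share of fibroblast-like nuclei in the Cemip group was 64.5% in NTG replicate 2 and 42.3% to 43.0% in the other 3 (gap over range 0.969). Aldh1a2 was lowest in NTG replicate 4, at 101 UPM (0.837), and so was Cped1, at 1413 UPM (0.835). Tfap2b was highest in NTG replicate 1, at 97.4 UPM (0.846), as were Mylk, at 48.1 CPM (0.889), and Fgf13, at 303 CPM (0.896).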

How the results depend on the processing

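The P301S share difference of 0.0516 points had no stable sign. It was -3.22e-05 with at least 4 rule genes, -0.0617 over nuclei with at most 1 Slc17a7 UMI, -0.0390 after thinning to 1000 UMIs, -0.0673 in the floxed line, and -0.152 without NTG replicate 4 (the same without both sparse libraries). Leaving out 1 mouse at a time it ran from -0.152 to 0.196, being -0.0291 without P301S replicate 1. The other differences kept their sign under every alternative run. With 1 mouse left out they ran from -0.384 to -0.191 for the knockout, -0.807 to -0.370 for active IKKβ and -0.438 to -0.0906 for the 3 genotypes. Thinning gave -0.120 (knockout) and -0.342 (active IKKβ), and 4 rule genes -0.137 and -0.332. Without both sparse libraries, a choice made after seeing the data and on the outcome itself, the 3 genotypes' difference was -0.366, and its p is not read. Without the count filter edgeR called 7, 12, 34 and 17 of 19428 genes (P301S, knockout, active IKKβ, 3 genotypes), against 0 with it. The cause was not tested. Of these, 5, 11, 29 and 16 genes had been tested with the filter too, 11 of the named values of lowest p among them. Htr2c rests on P301S replicate 1 (292 of 471 UMIs), as do the choroid plexus genes Otx2os1 (34 of 38) and Ttr (28 of 38), and the ependymal and choroid list was highest there (0.0117% of UMIs, 0.00325% to 0.00793% elsewhere). Their part in Htr2c was not tested. Acta2 rests on active-IKKβ replicate 2. Age as a covariate gave 1 gene for the knockout (Htr2c, log2 fold change -4.31), and Slc6a20a-set nuclei alone, also chosen after seeing the data, gave 1 for the 3 genotypes (Kirrel3, -1.40, adjusted p = 0.00888 by edgeR). Leaving out 1 mouse at a time gave 0 genes in each comparison. With at least 4 rule genes, a choice added after seeing the data, ratios over other nuclei fell from 724 to 159 (Slc47a1), 209 to 41.7 (Slc26a7), 133 to 70.8 (Tbx15), 164 to 106 (Bmp5) and 130 to 82.5 (Bmp4). All log2 fold changes of named genes of lowest p kept their direction wherever the gene was tested. Some genes had no value under a setting, as Vat1l and Meis1 with nuclei of 3 other-class markers left out.

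Over both lines pooled, residuals of mice with the same title number in different groups had a mean correlation of -0.00306 (22 pairs, lowest -0.127). Pairing within a line was not tested. In the active-IKKβ line, same-numbered NTG and active-IKKβ mice had the same age, 10.85 months for number 1 and 9.8 for number 2. With the number as a replicate block the P301S share difference was -0.00434, the knockout's -0.216, active IKKβ's -0.533 and that of the 3 genotypes -0.254, and 0 genes were called. In 2 mice with 140725 and 158539 UMIs, depth limits every gene value.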
